A study of Mus musculus with 12 samples.

Results

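The non-tumor liver of old second-generation (F2) male mice was compared between an arsenite line and a control line. All 57 regions that the authors listed as differentially methylated between the groups CCTn and AATn were taken, out of 1711 regions in the 3 lists of the series, with no threshold on the direction or the size of the difference. CCTn was non-tumor liver of the control group and AATn was non-tumor liver of the arsenite group, with 3 samples each. All were C3H/HeN males aged 74 weeks, and the arsenite group was born to F1 mice that had been exposed to arsenite while in the womb. The labels do not say whether the F2 males themselves received arsenite, which F1 parent was exposed, or whether each sample of a group is another mouse. AATn and the tumor group AATt carry the same sample numbers (5, 9 and 13), and whether they come from the same mice is not stated. The other lists, used only where a difference from them is shown, held 107 regions of normal liver and 1547 of tumors. The normal list compares CCN with AAN, and the tumor list CCTt with AATt. The series holds no sample of the control groups CCN and CCTt, so their sample number and age are not known here.

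In mammals, DNA methylation is set mostly on the cytosine of CpG dinucleotides. CpG-rich promoters are usually unmethylated, while gene bodies and intergenic CpGs are mostly methylated. Imprinted genes are the textbook exception, since one parental copy carries methylation that the other lacks. Inorganic arsenic is methylated in the liver by an enzyme that uses the same methyl donor as DNA methylation, S-adenosylmethionine. C3H mice are a strain prone to liver tumors, and non-tumor tissue here is liver that the labels set apart both from tumor and from normal liver.

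Methylation was read by reduced-representation bisulfite sequencing (RRBS), which sequences short fragments between MspI sites (ccgg) and thereby favours CpG-rich DNA. Each region of the authors' deposited table carries 1 methylation difference between the groups in percentage points. It also carries a count of CpG sites, a count of the differentially methylated ones among them (DMCs), and the distance to the nearest transcription start site (TSS). The sources used here do not say whether a site is a whole CpG or the cytosine of 1 strand. In 1 normal and 2 tumor regions, though 0 of these 57, the count was too large for the length unless both strands were counted. A count of sites may thus stand for fewer CpGs. There is no value per sample, so no replicate error, confidence interval or test between the 3 arsenite and 3 control samples can be given. The read depth behind the values is unknown. Positive values are taken to mean more methylation in the arsenite line. No source used here defines the sign, and with the reverse coding every direction below turns over. The tissue was bulk liver, so a methylation change within cells and a change in the mix of cell types cannot be told apart, and the tissue label cannot be checked against expression markers in these lists.

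The differences went in both directions, and positive ones were the more frequent without a clear majority. In the authors' deposited table, 34 regions were positive and 23 negative, a positive share of 59.6% (exact Clopper-Pearson 95% interval 45.8% to 72.4%, counting error only). The positive differences ran from 20.04 to 29.9 points and the negative ones from -20.2 to -31.1 points. No region of the list was below 20 points in size, and 9 of the 57 lay within 1 point of that floor. Those nearest to it were the regions of Ccdc110 at 20.04 points and of the calcium channel gene Cacna1e at -20.2 points. Each of the 57 regions had a different nearest gene, so no gene was supported by a second region. The regions lay on 19 chromosomes, with 6 each on chromosomes 2, 8 and X. All 4 regions of chromosome 17 (Snx9, Socs5, Dact2 and Igf2r) were positive, as were both regions of chromosome 12 and both of chromosome 19. Both regions of chromosome 7 (Ifitm10 and Aplp1) were negative. These counts are small, and chromosomes were not tested against each other.

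**Figure D1:**
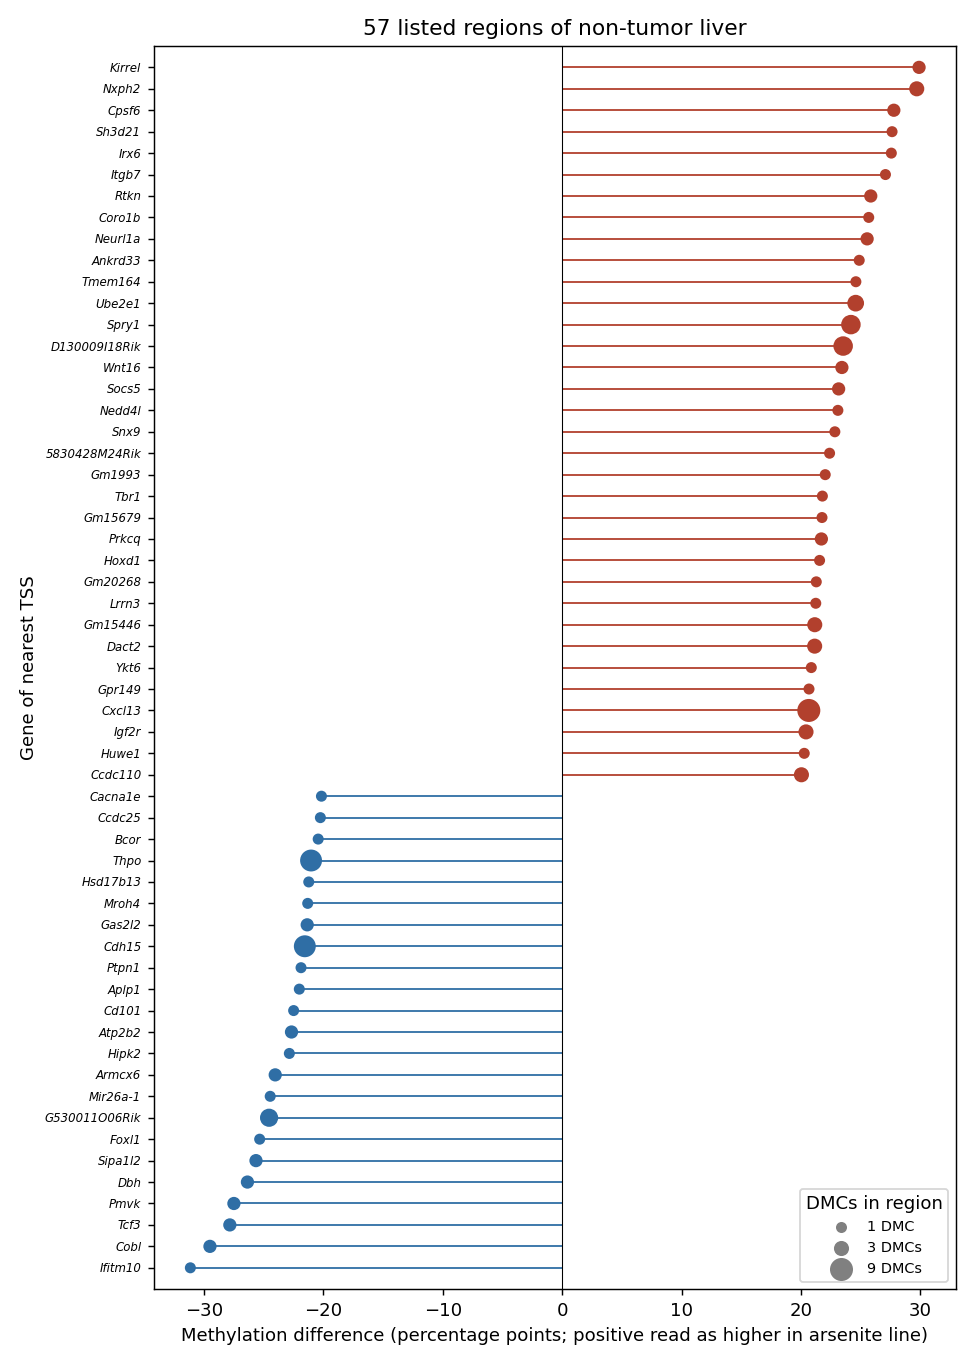
Methylation difference in percentage points (horizontal axis) of each of the 57 regions, named by the gene of the nearest TSS (vertical axis), with dot area growing with the number of DMCs. Red dots are the 34 positive regions and blue dots the 23 negative ones. The regions with the most DMCs (Cxcl13 with 9, Thpo and Cdh15 with 8 each) lie below the median size of 22.8 points. Those with 5 or 6 DMCs (Spry1 at 24.2 points, D130009I18Rik at 23.5 and G530011O06Rik at -24.5) lie above it.

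Regions across a TSS bear on a promoter, and 3 of the 57 did so, those of Igf2r, Thpo and Ccdc110. The sequence from 250 bases before to 50 after each start is shown to place the CpGs that the regions cover (RefSeq, GRCm38.p6, the assembly that mm10 represents; each on the strand of its gene, 5′ to 3′). Capitals mark each CpG that lies within the listed region. The RefSeq start of Ccdc110 lies 29 bp from the listed TSS, and the other two within 1 bp of it.
Igf2r, chr17:12769657-12769956, minus strand: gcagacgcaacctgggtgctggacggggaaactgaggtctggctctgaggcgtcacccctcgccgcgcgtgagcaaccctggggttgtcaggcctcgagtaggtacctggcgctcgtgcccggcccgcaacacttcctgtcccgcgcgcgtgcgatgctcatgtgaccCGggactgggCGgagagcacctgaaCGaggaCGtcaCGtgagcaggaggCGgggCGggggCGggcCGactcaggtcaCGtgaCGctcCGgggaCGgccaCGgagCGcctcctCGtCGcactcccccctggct
Thpo, chr16:20734462-20734761, minus strand: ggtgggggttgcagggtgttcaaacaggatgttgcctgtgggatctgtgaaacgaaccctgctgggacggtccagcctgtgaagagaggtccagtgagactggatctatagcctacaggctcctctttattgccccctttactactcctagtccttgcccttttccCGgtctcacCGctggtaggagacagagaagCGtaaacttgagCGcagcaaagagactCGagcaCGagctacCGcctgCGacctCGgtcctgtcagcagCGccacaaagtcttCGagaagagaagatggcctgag
Ccdc110, chr8:45934369-45934668, plus strand: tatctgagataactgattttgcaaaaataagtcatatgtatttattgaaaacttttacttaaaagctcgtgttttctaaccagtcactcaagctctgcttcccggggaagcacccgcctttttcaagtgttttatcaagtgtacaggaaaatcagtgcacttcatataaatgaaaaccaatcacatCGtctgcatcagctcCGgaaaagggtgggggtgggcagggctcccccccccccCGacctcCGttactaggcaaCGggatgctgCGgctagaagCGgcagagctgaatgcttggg

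These promoters differed in CpG content. The Igf2r window held 34 CpGs, a number reached by 7.73% of the 32851 mouse promoter windows of this length. The Thpo window held 13 CpGs, a number reached by 37.9% of windows, and the Ccdc110 window held 10, reached by 43.5%. The median window held 7. MspI sites (letters CCGG, which read the same on both strands) numbered 3 in the Igf2r window, 1 in that of Thpo and 2 in that of Ccdc110, and 52.8% of all windows held at least 1.

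Igf2r encodes the receptor that binds insulin-like growth factor 2 and clears it by lysosomal degradation. It is imprinted, expressed from the maternal copy in most mouse tissues, and its promoter is methylated on the silent paternal copy. In the authors' deposited table its region (chr17:12769509-12769788, mm10) was positive at 20.4 points, with 34 CpG sites and 3 DMCs. It ran from inside the transcript to upstream of its start and overlapped the span of the noncoding transcript Airn, which silences the paternal copy. The part of the region within the window, 132 bp, held 17 CpGs, which are 34 cytosines over both strands, and 34 sites are listed for the whole region of 280 bp. At 8.82%, its share of sites called as DMCs was small, and 31 of the 34 sites were not called.

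Thpo encodes thrombopoietin, the hormone of platelet production, which is made mainly by hepatocytes. Its region (chr16:20734153-20734595) had a negative difference of -21.03 points in the authors' deposited table, with 26 CpG sites and 8 DMCs. It spanned 443 bp and overlapped the spans of Thpo and of the neighbouring gene Chrd, which encodes the BMP antagonist chordin. In it fell 11 CpGs of the Thpo window, or 22 cytosines over both strands. Ccdc110, a coiled-coil protein gene, had the smallest positive difference of the list (chr8:45934555-45934714; 20.04 points, 3 DMCs among 14 sites). The 114 bp of it within the window held 7 CpGs, or 14 cytosines over both strands. Its region overlapped a tumor region, described below with the other overlaps. Of the 3 promoter regions, those of Igf2r and Ccdc110 were thus positive and that of Thpo negative, all at sizes near the floor of the list.

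CpG-dense regions, taken as those with at least 10 CpG sites, numbered 9, and 6 of them were positive against 34 of the 57. This is a count of sites and takes no account of length. Per 100 bp these regions held 4.13 to 26.1 sites, and some short regions outside the class held more, as at Itgb7 with 50. The region with the most sites was near Cxcl13, the gene of a chemokine that attracts B cells (chr5:95973948-95974108). In the authors' deposited table it had 42 CpG sites in 161 bp, 9 of them DMCs, at 20.7 points and 17010 bp downstream of the listed TSS. It lay inside the span of the pseudogene Gm7993 and outside Cxcl13. Cdh15, the gene of M-cadherin, a cell adhesion protein of muscle, had a negative region inside its span (chr8:122864736-122865364; -21.6 points, 8 DMCs among 26 sites over 629 bp). Ube2e1, which encodes a ubiquitin-conjugating enzyme, had a positive region inside its span (24.6 points, 4 DMCs among 12 sites, 4646 bp downstream of its TSS). Socs5, a suppressor of cytokine signalling, had a positive region in its span with 2 DMCs among 11 sites (23.2 points). The noncoding RNA gene D130009I18Rik had 6 DMCs among 10 sites in a positive region of 76 bp inside its span, 76648 bp downstream of its TSS (23.5 points). G530011O06Rik completed the 9 and is described with the overlaps.

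The largest differences stood at regions of few CpG sites. The largest difference among the 9 dense regions was 24.6 points, while the 16 regions of at least 25 points had at most 5 CpG sites. Among the 38 regions with 3 or 4 CpG sites, 28 rested on 1 DMC, and none of the 9 dense regions did. Pooled over sites, 25.9% of the sites of dense regions and 38.6% of those in regions of 3 or 4 sites were DMCs. Since every listed region has at least 1 DMC, the share cannot fall below 25% in a region of 4 sites but can reach 10% in one of 10, so the listing rule itself bears on this order.

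**Figure D2:**
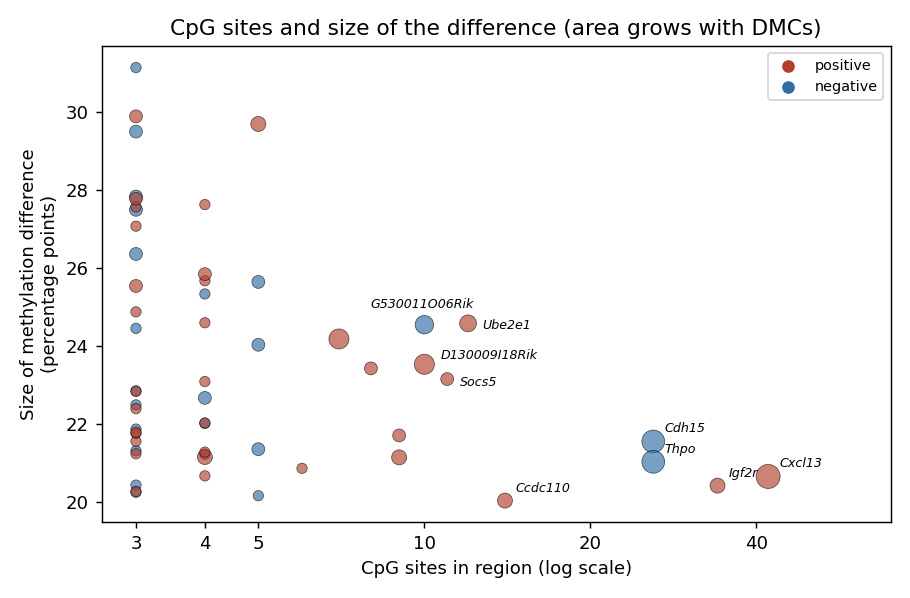
Size of the methylation difference in percentage points against the number of CpG sites (log scale) for the 57 regions, with dot area growing with DMCs and the 9 regions of at least 10 CpG sites named. Red dots are positive and blue dots negative. Every difference of at least 25 points belongs to a region with at most 5 sites, and 38 of the 57 regions have 3 or 4 sites.

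Regions with many DMCs had both signs. With at least 3 DMCs there were 12 regions, of which 9 were positive (34 of 57 over all regions) and 3 negative, the negative ones being Thpo, Cdh15 and G530011O06Rik. The share depends on where the line is drawn, since 16 of the 27 regions with at least 2 DMCs and 3 of the 6 with at least 5 were positive. Spry1, an inhibitor of receptor tyrosine kinase signalling, had the highest share of called sites in the list, 85.7% (chr3:37642678-37643055; 24.2 points). A region near the uncharacterised noncoding gene Gm15446 had 3 DMCs among 4 sites (21.2 points). Near Nxph2, a neurexophilin gene, a region outside any gene span had 3 DMCs among 5 sites and the second largest positive difference in the authors' deposited table (29.7 points, 30186 bp upstream). The region near Dact2 had 3 DMCs among 9 sites (21.1 points). In no region of the 57 were all sites called, which allows a share of up to 5.26% (3 counts). All sites were called in 2 of the 107 normal and 29 of the 1547 tumor regions. Both of those shares lie below that bound, so no difference between the lists is shown. At least 50% of the sites were called in 14 of the 57 regions.

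Most regions lay more than 10 kb from the start of their listed gene. By the listed distances, 3 regions overlapped a TSS, 14 lay at 1 to 10 kb, 29 at 10 to 100 kb and 11 beyond 100 kb. Positive regions made up 2 of 3, 9 of 14, 16 of 29 and 7 of 11 of these bins, in the same order, against 34 of 57 in all. The median distance was 26218 bp, and the farthest region lay 1209336 bp from its listed gene Gm20268 (21.3 points). Upstream of the TSS lay 22 regions, 14 of them positive, and downstream 32, of which 18 were positive. More than 100 kb from the listed TSS, the 7 positive differences reached 22.03 points, and the 4 negative ones, at Cobl, Sipa1l2, Foxl1 and Bcor, ran from -20.4 to -29.5 points. Another start was often nearer. With the starts of the RefSeq promoter table added, which is not complete, 19 regions lay within 10 kb of a start and 6 beyond 100 kb, and the median distance was 17009 bp. By that measure the regions of Bcor (1593 bp), Dact2 (12681 bp), Sipa1l2 (15303 bp), Foxl1 (49787 bp) and Gm1993 (96846 bp) were within 100 kb of a start, and that of Cdh15 (5049 bp) within 10 kb.

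**Figure D3:**
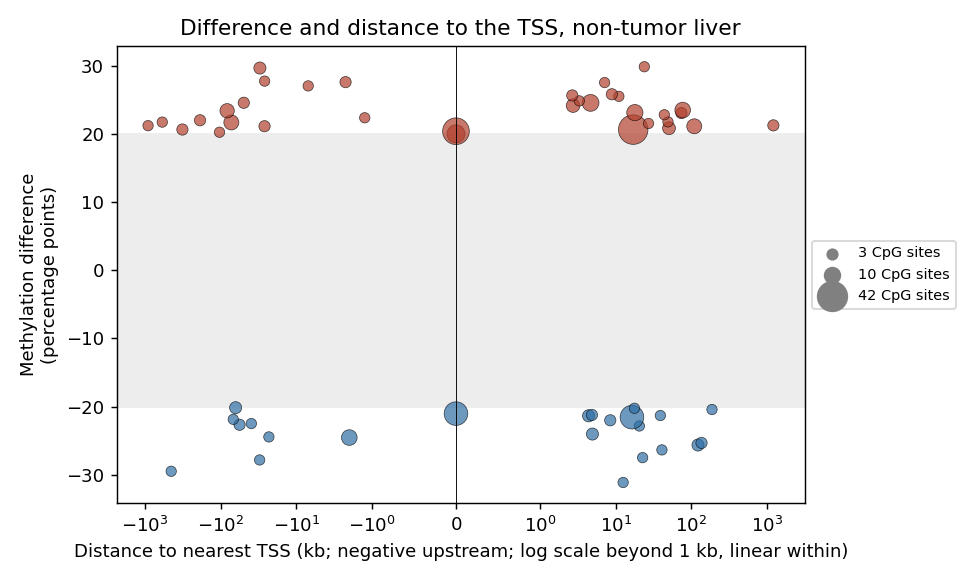
Methylation difference in percentage points against the signed distance to the nearest TSS in kb (log scale beyond 1 kb) for the 57 regions, with dot area growing with the number of CpG sites. The grey band below 20 points in size holds no listed region, and positive (red) and negative (blue) regions occur at all distances.

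The nearest TSS often did not name the gene that holds the region. A gene span of the RefSeq table overlapped 39 of the 57 regions, and 23 overlapped the listed gene itself. Any overlap is counted as inside, here and elsewhere, so regions that run past a gene's start, as at Igf2r, Thpo and Ccdc110, are included. Another 16 lay inside a different gene only, and 18 outside any span. Protein-coding spans held 30 regions, 16 positive and 14 negative. Among the 18 outside any span, 12 were positive.

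The genes that hold such regions are given for 6 of the 16, picked out after their values were seen. The region listed under Dbh, which encodes the noradrenaline-forming enzyme, lay inside Sardh, the gene of sarcosine dehydrogenase, a mitochondrial enzyme of one-carbon metabolism that is abundant in liver. It was negative in the authors' deposited table (chr2:27206243-27206304; -26.4 points, 2 DMCs among 3 sites, 40737 bp downstream of the Dbh TSS). The region listed under Itgb7, an integrin gene of lymphocyte homing, lay inside Rarg, a retinoic acid receptor gene (27.1 points, 1 DMC among 3 sites over 6 bp). That of Sh3d21 lay inside Thrap3, which encodes a factor of transcription and splicing (27.6 points, 1 DMC among 4 sites). The Wnt16 region lay inside Cped1 (23.4 points, 2 DMCs among 8 sites), and the Ykt6 region inside Camk2b, a calmodulin-dependent kinase gene (20.9 points, 1 DMC among 6 sites). The negative region listed under Cd101 lay inside Ptgfrn (-22.5 points, 1 DMC among 3 sites).

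A microRNA gene was among the nearest starts as well. Mir26a-1 gives rise to miR-26a and lies within Ctdspl, a phosphatase gene, in whose span the region also lay. In the authors' deposited table the region was negative (chr9:119008799-119008827; -24.5 points, 1 DMC among 3 sites over 29 bp), and it lay 22969 bp upstream of the hairpin, so it does not cover the microRNA itself. The mature sequences are shown to identify it, with the seed (bases 2 to 8) in capitals (RefSeq, GRCm38.p6).
mmu-miR-26a-5p: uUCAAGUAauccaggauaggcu
mmu-miR-26a-1-3p: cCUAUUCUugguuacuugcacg

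The 10 largest positive differences ran from 24.9 to 29.9 points. The largest was inside Kirrel, the gene of a nephrin-related adhesion protein (chr3:87150644-87150890; 29.9 points, 2 DMCs among 3 sites, 23857 bp downstream of the TSS in the authors' deposited table). Nxph2 followed, then a region listed under Cpsf6, a subunit gene of the messenger RNA cleavage complex (27.8 points, 2 DMCs among 3 sites, inside the noncoding gene Gm40770). Irx6, an Iroquois homeobox gene, stood at 27.6 points with 1 DMC among 3 sites. Rtkn (25.8 points, 2 DMCs among 4 sites), and Coro1b, an actin regulator (25.7 points, 1 DMC among 4 sites), each held the region in their own span. So did Neurl1a, a ubiquitin ligase gene (25.5 points, 2 DMCs among 3 sites). Sh3d21, Itgb7 and Ankrd33 made up the 10.

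The 10 largest negative differences ran from -24.03 to -31.1 points. The largest lay inside Ifitm10, a member of a family known for interferon-induced membrane proteins (chr7:142359507-142359734; -31.1 points, 1 DMC among 3 sites, 12525 bp downstream of the TSS in the authors' deposited table). A region 448622 bp upstream of Cobl, an actin nucleator gene, followed at -29.5 points with 2 DMCs among 3 sites and lay outside any span. Tcf3, which encodes the E2A transcription factors, had a region of 7 bp lying 30417 bp upstream (-27.8 points, 2 DMCs among 3 sites). Near Pmvk, a kinase gene of cholesterol synthesis, the region lay 22642 bp downstream of the TSS and outside any span (-27.5 points, 2 DMCs among 3 sites). Sipa1l2, a regulator gene of Rap GTPases, had -25.6 points with 2 DMCs among 5 sites, and the forkhead gene Foxl1 -25.3 points with 1 DMC among 4 sites. Armcx6 on the X chromosome had -24.03 points with 2 DMCs among 5 sites. The regions of Dbh, G530011O06Rik and Mir26a-1 made up the 10.

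The remaining 17 regions had 9 positive and 8 negative differences of at most 23.1 points in size. The positive ones were listed under Nedd4l, 5830428M24Rik, Gm1993, Tbr1, Gm15679, Prkcq, Lrrn3, Gpr149 and Huwe1, at 20.3 to 23.1 points in the authors' deposited table. Of these, Nedd4l, a ubiquitin ligase gene known for control of the epithelial sodium channel, held the region in its span, and those of Prkcq and Gpr149 lay in the pseudogenes Gm13294 and Gm9701. The negative ones were listed under Cacna1e, Ccdc25, Gas2l2, Ptpn1, Aplp1, Cd101, Atp2b2 and Hipk2, at -22.9 to -20.2 points. The calcium pump gene Atp2b2 and the kinase gene Hipk2 held the region in their spans, whereas that of Ptpn1, which encodes a phosphatase of the insulin receptor, lay 67860 bp upstream. In 14 of the 17, 1 DMC carried the call.

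Among the 11 gene lists counted, 8 had a region by nearest gene and none had more than 3. The 57 nearest genes make up 0.211% of the 27025 genes with a promoter window, so lists of this length would hold few or none at that rate, and 34 of the 57 regions were positive. The lists were chosen with earlier results of these data known, so finding a member here is not an independent result. The hepatocyte list (31 symbols) had Thpo and Hsd17b13, which encodes a lipid droplet enzyme, and both were negative. Hsd17b13 stood at -21.2 points in the authors' deposited table, with 1 DMC among 4 sites, 4845 bp downstream. Both regions of the Wnt pathway list (66 symbols) were positive. They were near Wnt16, which encodes a ligand, and Dact2, a regulator, at 81768 bp upstream and 108978 bp downstream. The imprinted list (36 symbols) had Igf2r and Cobl, of opposite sign. The developmental factor families (273 symbols) had Irx6, Hoxd1 (21.6 points) and Foxl1, of which the last was negative. The receptor kinase list had Spry1 alone out of 140 symbols. The adhesion list had Itgb7 and Cdh15, of opposite sign. Itgb7 was the only immune marker and Foxl1 the only stellate, endothelial or bile duct marker, and neither region lay in the gene. The lists of arsenic metabolism and methyl supply (27 symbols), DNA methylation and chromatin regulators (35) and liver tumor genes (25) had 0 regions, by nearest gene or by host. Sardh was not on these lists. A gene without a listed region was not shown to be unaffected, since the sites that could have been listed are not known here.

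Of the 57 regions, 6 overlapped a region of another list, 3 of them one in normal liver (5.26% of this list, 2.80% of the normal list) and 4 one in tumors (7.02% of this list, 0.259% of the tumor list). How many overlaps chance would give was not tested. The region listed under G530011O06Rik, inside the ubiquitin ligase gene Mid1 on the X chromosome, had the same coordinates in non-tumor liver and tumors (chrX:169980904-169981043) and nearly the same value. The authors' deposited tables gave -24.5 points with 5 of 10 sites called in non-tumor liver and -23.8 points with 7 of 10 in tumors. A further tumor region listed under that gene, 16927 bp away, was negative too (-23.0 points, 8 of 17 sites). Mid1 is known to span the boundary of the pseudoautosomal segment, where X and Y share sequence, and whether reads of both were counted at this position was not tested.

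At Ccdc110 the promoter region was positive in both tissues. The tumor region contained that of non-tumor liver and reached 72 bp further upstream, with 25.9 points and 11 of 16 sites called in the authors' deposited table. At Ankrd33, a gene named for its ankyrin repeats, the region of 11 bp overlapped a normal liver region by 10 bp. Both were positive with 1 DMC among 3 sites, at 24.9 points in non-tumor and 22.3 points in normal liver. Near Tmem164 the regions shared 66 bp and were positive in both, at 24.6 points in non-tumor and 21.1 points in normal liver, each with 1 DMC.

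The 2 other overlaps differed in sign. Near Gm15446 the region of 180 bp lay wholly within a tumor region with the same start (chr5:109907166-109907387). The authors' deposited tables gave 21.2 points with 3 of 4 sites called in non-tumor liver, and -44.4 points with 10 of 13 sites called in tumors. At the Dact2 position the difference was positive in non-tumor liver and in tumors (29.2 points, 6 of 7 sites) and negative in normal liver (-24.8 points, 3 of 7 sites). These reversals rest on the sign being coded alike in the lists, which no source used here states, and they were not tested. Site counts also differed, with 4 here against 13 in tumors near Gm15446, and 9 here against 7 in both other lists near Dact2. The values compared thus need not rest on the same sites.

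**Figure D4:**
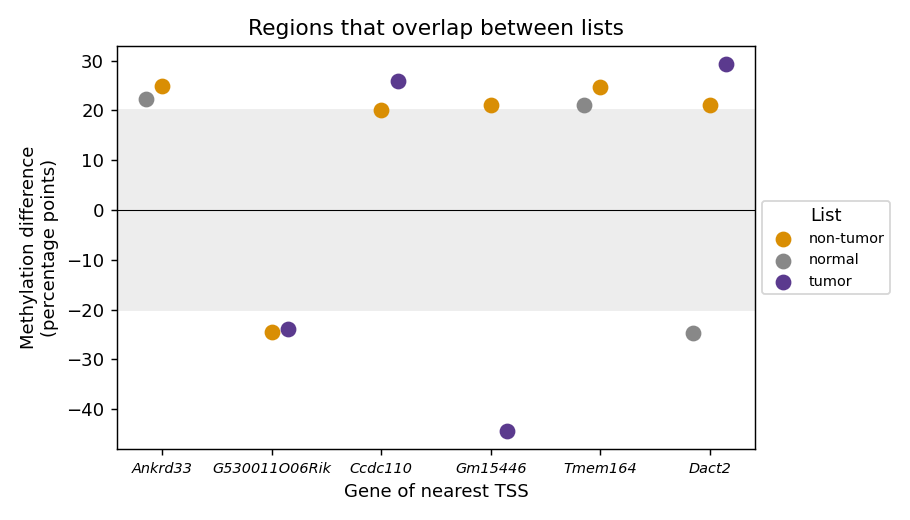
Methylation difference in percentage points for the 6 non-tumor regions that overlap a region of normal liver (grey) or tumors (purple), by the gene of the nearest TSS. Gm15446 and Dact2 have dots on both sides of 0, and the other 4 genes on one.

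Some nearest genes were shared with tumors without a shared position. At 10 genes, 11 pairs of a non-tumor and a tumor region had the same nearest gene without overlapping, at separations of 3173 to 865856 bp. The same sign was found in 7 pairs, of which Bcor gave 2. Positive regions made up 59.6% of this list and 68.7% of the tumor list, so pairs would often share a sign by these shares alone. Kirrel was positive in both, with 29.4 points in the tumor table and the regions 67152 bp apart. Irx6 was positive in both as well, with 20.3 points in tumors and a separation of 3173 bp. Sipa1l2 (-34.1 points in tumors) and Bcor, a transcriptional corepressor gene with 2 tumor regions (-25.3 and -22.0 points), were negative in both. Foxl1 (24.5 points in tumors), Ykt6 (-23.8 points), Snx9, an endocytosis gene (-22.6 points), and Mroh4 (22.5 points in tumors against -21.3 points here) had opposite signs in the authors' deposited tables. No non-overlapping pair of this kind was found with normal liver. The tumor list names 1346 genes and the normal list 107. How many pairs lists of these lengths would share by chance, and how many with the same sign, was not tested.

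The list was set against the others in 5 properties, giving 10 contrasts with p-values adjusted over them. These tests take listed regions as units, so they compare lists and not animals. Regions with at least 10 CpG sites made up 15.8% of the non-tumor list (9 of 57; 7.48% to 27.9%) and 2.80% of the normal list (3 of 107; 0.582% to 7.98%; Fisher's exact test, two-sided, with an odds ratio of 6.5 and an adjusted p of 0.0196). The tumor list had 13.1% such regions (203 of 1547; Fisher's exact test, adjusted p = 0.611, odds ratio 1.24). Regions resting on 1 DMC were more frequent here, at 52.6% (39.0% to 66.02%), than in tumors, at 35.6% (33.2% to 38.0%; Fisher's exact test, adjusted p = 0.0368, odds ratio 2.01). The normal list had 66.4% (Fisher's exact test, adjusted p = 0.188, odds ratio 0.563). Pooled over sites, 32.2% were DMCs here, 35.8% in normal liver and 44.4% in tumors.

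The share of positive regions was higher than the 30.8% of normal liver (Fisher's exact test, adjusted p = 0.00453, odds ratio 3.31), a contrast that needs the sign to be coded alike in both lists. With the sign of the non-tumor list turned, its share would be 40.4% and the contrast would not pass (Fisher's exact test, adjusted p = 0.385, odds ratio 1.52). Against the 68.7% of tumors the listed sign gave no call (Fisher's exact test, adjusted p = 0.249, odds ratio 0.673), and the turned sign gave a lower share here (Fisher's exact test, adjusted p = 0.000178, odds ratio 0.308). The share inside a gene span, 68.4%, stood beside 66.4% in normal liver and 55.1% in tumors (Fisher's exact test, adjusted p = 0.862 and 0.142). That within 10 kb of a TSS, 29.8%, stood beside 36.4% and 24.6% (Fisher's exact test, adjusted p = 0.611 and 0.505). Each of the 3 contrasts that passed was lost in a stricter list. With at least 2 DMCs per region the adjusted p against normal liver was 0.155 (Fisher's exact test), both for at least 10 CpG sites and for positive share. With at least 25 points it was 0.585 for positive share against normal liver and 0.120 for single DMCs against tumors, and no region of the non-tumor list then had 10 CpG sites.

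**Figure D5:**
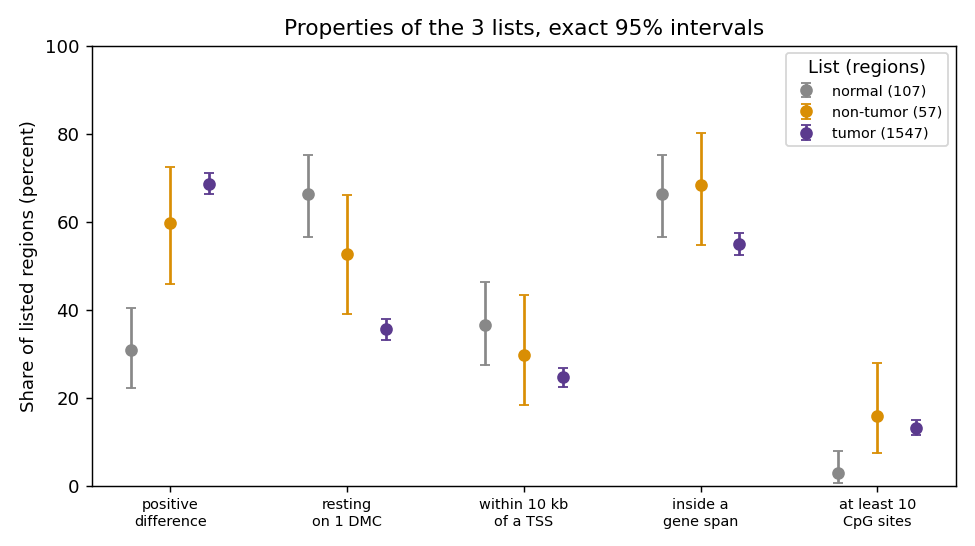
Share of listed regions in percent (vertical axis) with each of 5 properties in the normal (grey, 107 regions), non-tumor (orange, 57) and tumor (purple, 1547) lists; bars are exact 95% intervals for counting error only. Non-tumor liver stands at 15.8% for at least 10 CpG sites against 2.80% in normal liver, and at 52.6% for 1 DMC against 35.6% in tumors.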

How the data were processed

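The authors deposited 1 list of differentially methylated regions per tissue. The submitters' processing notes name bedtools 2.25.0, methylKit, Bismark and Trim Galore, and the build mm10. Which tool called the regions, with what coverage minimum and significance threshold, is not given in the sources used here. Per the file headers, a list holds the methylation difference (percentage points), the counts of CpG sites and DMCs deposited for each region, and the signed TSS distance. Length equalled end minus start plus 1, and the distance could be recomputed within 1 bp, in all 57 regions, so coordinates are 1-based. RefSeq accessions, restored from a form without leading zeros, matched 56 entries of the RefSeq table (GRCm38.p6), and 1 matched by symbol. Host genes are spans of that table that overlap the region at all, and exons and introns were not told apart.

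Shares carry Clopper-Pearson intervals (scipy 1.17.1). Fisher's exact tests were two-sided, with Benjamini-Hochberg adjustment over 10 contrasts (statsmodels 0.14.6, threshold 0.05). With at least 2 DMCs, single DMCs could not be contrasted, so the adjustment ran over fewer contrasts. The step was tested on simulated lists of full length, with a far larger contrast in positive share than observed. That simulation does not bear on the stricter lists. Values are given in full for the 10 largest differences each way, regions with at least 10 CpG sites or 3 DMCs, those within 1 kb of a TSS, those shared by position or nearest gene with another list, and members of the gene lists. The regions, gene lists and tests were chosen with earlier results of these data known. Columns of unmapped samples numbered 0. Alternatives were at least 2 DMCs, at least 25 points, autosomes, 1 region per gene, other spans and starts, and other overlap rules.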

Additional observations from a re-analysis of the deposited data

Results flagged for a closer look

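The non-tumor and normal lists differed in the share of positive regions (59.6% against 30.8%; Fisher's exact test with listed regions as units, adjusted p = 0.00453). The test compares lists and not mice, and it takes the sign as coded alike in both. With the sign of the non-tumor list turned, the share would be 40.4% and the contrast would not pass (Fisher's exact test, adjusted p = 0.385). It did not pass with at least 2 DMCs (Fisher's exact test, adjusted p = 0.155) or at least 25 points (Fisher's exact test, adjusted p = 0.585) either.

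The regions near Gm15446 (21.2 points in non-tumor liver, -44.4 points in tumors) and near Dact2 (21.1 points in non-tumor liver, -24.8 points in normal liver) had opposite signs at overlapping positions in the authors' deposited tables. Neither difference was tested, since no value per sample is at hand. The regions compared also differed in their counts of CpG sites, so the values need not rest on the same sites.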

How the results depend on the processing

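No paired analysis was possible because the lists hold no value per sample, and leaving out a replicate could not be run for the same reason. The positive share of the non-tumor list was 56.25% to 60.8% under 4 alternatives, against 59.6%. One of them, 1 region per nearest gene, could not change the share, since each region had its own nearest gene. The share resting on 1 DMC was 37.5% with at least 25 points. The share inside a gene span was 52.6% with protein-coding spans only. The share with at least 10 CpG sites was 0% with at least 25 points, where 0 of 16 regions had them, and 33.3% with at least 2 DMCs. With an overlap of at least 50% of both regions, 1 region in place of 3 was shared with normal liver, and 4 with tumors as before.

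Of the contrasts, that of positive share with normal liver had an odds ratio of 3.31 with at least 2 DMCs (Fisher's exact test, adjusted p = 0.155) and 3.0 with at least 25 points (Fisher's exact test, adjusted p = 0.585). With the sign of the non-tumor list turned, an alternative chosen after seeing the data, it had 1.52 (Fisher's exact test, adjusted p = 0.385), and the contrast with tumors had 0.308 and passed (Fisher's exact test, adjusted p = 0.000178). That of single DMCs with tumors had 4.21 with at least 25 points (Fisher's exact test, adjusted p = 0.120). The contrast of at least 10 CpG sites with normal liver had an odds ratio of 5.5 with at least 2 DMCs (Fisher's exact test, adjusted p = 0.155). With at least 25 points the odds ratio was 0, and that against tumors was 0 too. The uncalled contrast of gene spans with normal liver turned to 0.897 with at least 25 points. Stricter lists hold fewer regions (27 and 16), which lowers what the tests can call. Depth is unknown here, so it sets no limit that can be stated.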
